A study of Mus musculus with 6 samples.

Results

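LLC1, a mouse cell line of the Lewis lung carcinoma, was grown as tumours and compared between ovariectomized hosts given progesterone and hosts that kept their ovaries. The comparison took the 2 libraries labelled as ovariectomized and progesterone treated (progesterone tumours) and the 2 labelled only as transgenic (transgenic tumours), so 4 of the 6 libraries of the series. All 19288 genes of the count table entered it, and 13632 had enough counts to be tested. The other 2 libraries came from ovariectomized hosts given vehicle (vehicle tumours), and their values stand beside as a description.

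Every host carried a beta-hCG transgene and was an outcross of a C57BL/6 mother with a transgenic FVB father. The transgenic tumours have no ovariectomy, vehicle or hormone in their labels, whereas supplementation in the other groups lasted 28 days. Tumours grew under the skin and were taken 30 days after implantation. Ovariectomy and progesterone therefore differ together between the groups compared, and their parts cannot be told apart here. Since all hosts were transgenic, the transgene itself was not compared. The promoter that drives it and the ages of the hosts stand in no source used here.

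Beta-hCG belongs to chorionic gonadotropin, the placental hormone of pregnancy, and is the subunit that gives it its specificity. The hormone acts through the luteinizing hormone receptor of the gonads. The ovary makes progesterone and oestrogen, and ovariectomy removes that source. Progesterone acts mainly through the progesterone receptor, a nuclear receptor that binds DNA elements shared with the glucocorticoid receptor. A tumour under the skin also holds host cells, among them macrophages, mast cells, fibroblasts and vessels, and bulk RNA mixes their transcripts with those of the tumour cells.

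Library totals were 25892142 and 22954543 counts in the progesterone and 26968095 and 23466357 in the transgenic libraries. Levels are given as CPM, read counts scaled to TMM library sizes, for library 1 and library 2 of a group in that order, and differences as log2 fold changes of progesterone over transgenic tumours. A CPM value does not correct for gene length, so levels are compared between libraries and not between genes. The 2 libraries of a group differed from each other about as often as libraries of different groups did. Between the progesterone libraries 1623 tested genes differed at least 2-fold, of which 1348 were higher in library 2, and between the transgenic libraries 1903 did. Between a progesterone and a transgenic library the number ran from 1278 to 1890. Nothing in the labels says that the libraries of a group came from separate mice, so the tests measure the spread between libraries.

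No gene passed the test between progesterone and transgenic tumours. edgeR's quasi-likelihood test called 0 of 13632 genes (0%), with a smallest adjusted p of 0.798, while an unadjusted p under 0.05 was seen for 718 genes and 681.6 are the number that chance gives. limma-voom also called 0, whereas the Wald test of DESeq2 called 46, of which 32 were higher and 14 lower in the progesterone tumours. The median log2 fold change of all tested genes was 0.01. For 1975 genes (14.5%) both progesterone libraries lay above both transgenic libraries, and for 1979 (14.5%) both lay below. With a difference of at least 2-fold as well, 323 genes (2.37%) were higher and 202 (1.48%) lower. Leaving out 1 of the 4 libraries raised both 2-fold counts, because fewer library pairs then have to keep their order. Such counts cannot be compared with the full ones. The shares over all tested genes are the background against which each gene group below is set. All differences below are values of genes that did not pass edgeR's test, with adjusted p from 0.798 upward.

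**Figure D1:**
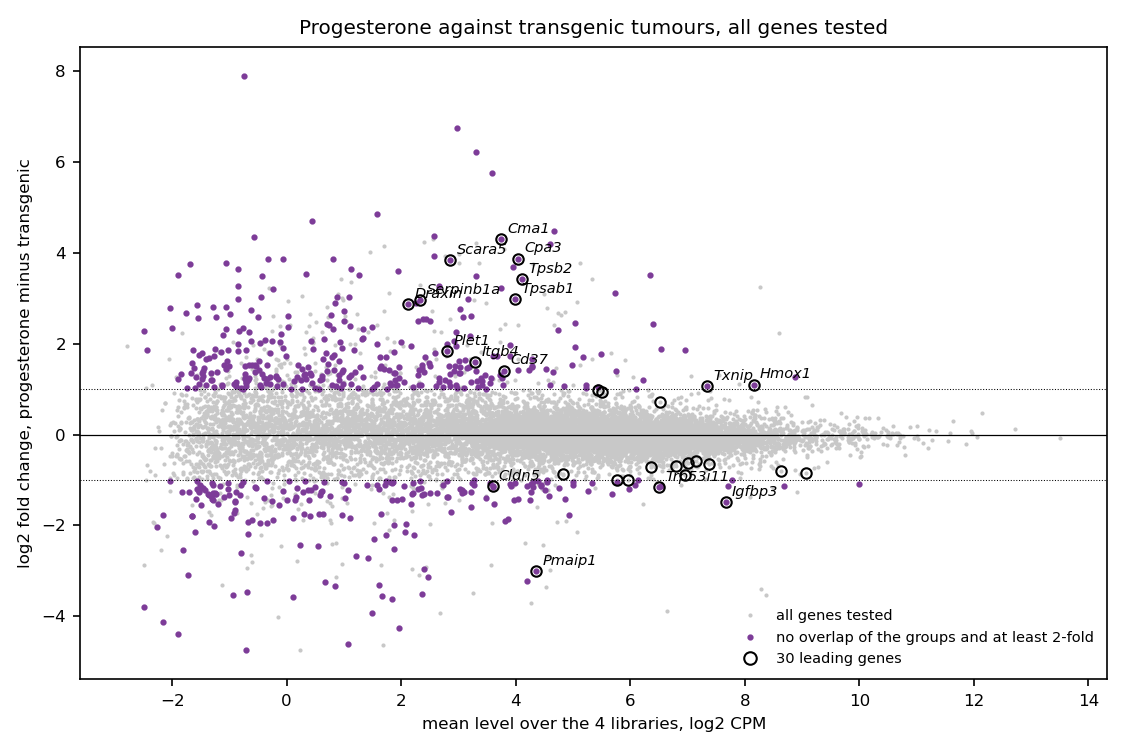
Log2 fold change of progesterone over transgenic tumours (vertical axis) against the mean level of the 4 libraries in log2 CPM (horizontal axis) for the 13632 genes tested. Purple points are the 323 higher and 202 lower genes at least 2-fold apart without overlap of the groups, and rings are the 30 leading genes, of which those past about 2-fold are named.

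Mast cell genes made up 4 of the 15 leading higher genes, those with the smallest p among genes of at least 5 CPM whose groups did not overlap. Mast cells are resident immune cells that store tryptases, chymases and a carboxypeptidase in granules. Tpsb2, a mast cell tryptase (ENSMUSG00000033825, chromosome 17 from 25366305 to 25369098, forward strand), had 24.1 and 39.3 CPM in the progesterone and 2.0 and 3.92 CPM in the transgenic libraries, with 5.11 and 5.67 CPM in the vehicle libraries. Both progesterone libraries were above all 4 others. The log2 fold change was 3.42 ± 0.43 (SE), with a 95% confidence interval from 2.41 to 4.43, a 10.7-fold difference. The chymase Cma1 had 13.5 and 37.2 CPM against 0.593 and 1.98 CPM, and 1.89 and 1.75 CPM in the vehicle libraries. Its log2 fold change of 4.31 ± 0.72 (SE) ran from 3.4 (without progesterone replicate 2) to 5.41 (without transgenic replicate 2). Tryptase Tpsab1 had 29.3 and 27.1 CPM against 1.67 and 5.48 CPM (log2 fold change 2.99 ± 0.53 (SE)), with 7.2 and 6.15 CPM in the vehicle libraries. Carboxypeptidase A3 (Cpa3) had 14.7 and 46.9 CPM against 0.815 and 3.41 CPM, and 1.54 and 3.02 CPM in the vehicle libraries. Progesterone library 2 was the highest of the 6 for Tpsb2, Cma1 and Cpa3, and without it Cpa3 had a log2 fold change of 2.80. Tpsb2 and Tpsab1 are related tryptase genes, and whether reads were shared between them was not tested.

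The whole mast cell and basophil list was described next, and its members outside the leading genes were named after their values were seen. Of 11 members, 8 lay above the transgenic libraries without overlap and 1 below, against 14.5% of all tested genes each way. The 8 include Tpsb2, Cma1, Tpsab1 and Cpa3, picked above from the same libraries for groups without overlap. The list was also chosen with earlier results known, so the count is a description and no independent support. The median log2 fold change was 3.42. The same 8 members were at least 2-fold higher, against 2.37% of all genes. The chymase Mcpt4 had 17.9 and 39.4 CPM in the progesterone and 0.407 and 4.05 CPM in the transgenic libraries. The chains of the high-affinity IgE receptor, Fcer1a and Ms4a2, had log2 fold changes of 3.86 and 3.53 at levels of 1.47 and 5.09 CPM and 1.78 and 2.9 CPM in the progesterone libraries. Mrgprb1, a receptor of connective tissue mast cells, had 2.51 and 5.09 CPM against 0.296 and 0.632 CPM. Not every member was high. Kit, the receptor for stem cell factor, which other cells also make, had 8.62 and 15.1 CPM against 12.6 and 17.4 CPM, and histidine decarboxylase (Hdc) had 32.5 and 23.1 CPM against 30.8 and 7.5 CPM, both with overlapping groups. Mcpt8, a protease of basophils rather than mast cells, went the other way, with 0.0386 and 0.29 CPM in the progesterone, 0.593 and 3.41 CPM in the transgenic and 4.01 and 2.23 CPM in the vehicle libraries. Summed over the list, the level was 147 and 242 CPM in the progesterone, 50.1 and 48.3 CPM in the transgenic and 61.8 and 63.8 CPM in the vehicle libraries. The list median ran from 2.8 (without progesterone replicate 2) to 3.98 (without transgenic replicate 2). The vehicle tumours, compared with the same transgenic libraries, had a median of 0.46. In bulk tumour RNA, more cells of a type and more RNA per cell cannot be told apart.

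The promoter of Cma1 is printed because it belongs to the mast cell gene with the largest fold difference among the leading genes. These are the 250 bases before the start in RefSeq (chr14:55944676-55944925, GRCm38.p6, reverse strand), 5′ to 3′, with a match to the GATA factor motif GATAA, here on the opposite strand, in capitals. GATA factors are known regulators of mast cell protease genes, and the motif was chosen after the sequence was seen.
Cma1: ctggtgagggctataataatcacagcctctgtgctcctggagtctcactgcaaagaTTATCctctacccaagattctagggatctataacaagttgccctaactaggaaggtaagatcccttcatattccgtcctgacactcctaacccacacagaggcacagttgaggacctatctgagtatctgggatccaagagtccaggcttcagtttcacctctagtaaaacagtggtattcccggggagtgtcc
Among the 32851 promoters of this length in the table, 22.6% hold GATAA on either strand, so its presence does not set Cma1 apart. The Cma1 sequence held no match to ACANNNTGT, the core of the element that progesterone and glucocorticoid receptors bind.

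Genes of bone-resorbing osteoclasts, which macrophages of the same lineage can also make, formed the second high group. Of 11 tested members, 8 (72.7%) were higher without overlap and 1 (9.09%) lower, against 14.5% of all genes each way. The groups overlapped for 2. This list too was chosen with earlier results known, so the count is a description and no independent support. Nfatc1, Clcn7 and Calcr are the listed genes not described below, as overlapping or below the filter. The median log2 fold change was 2.44 (from 1.97 (without progesterone replicate 1) to 2.79 (without progesterone replicate 2)). Vehicle tumours, compared with the same transgenic libraries, had a median of 1.15. Cathepsin K (Ctsk), a collagen-cleaving protease, had 174 and 126 CPM in the progesterone and 10.3 and 15.9 CPM in the transgenic libraries (log2 fold change 3.52 ± 0.99 (SE)). The vehicle libraries split for Ctsk, at 7.03 and 88.7 CPM, so that vehicle library 2 was near the progesterone tumours and vehicle library 1 near the transgenic ones. The same split held for tartrate-resistant acid phosphatase (Acp5), at 133 and 57.1 CPM in the progesterone, 9.37 and 12.4 CPM in the transgenic and 4.84 and 93.2 CPM in the vehicle libraries. Mmp9, the gelatinase, had 182 and 104 CPM against 39.7 and 12.9 CPM, with 20.1 and 97.5 CPM in the vehicle libraries. The osteoclast receptor Oscar had 3.9 and 3.06 CPM against 0.667 and 0.379 CPM. Dcstamp and Ocstamp, membrane proteins of cell fusion, had log2 fold changes of 2.5 and 2.36, Atp6v0d2, a subunit of the proton pump, 2.77, and Tnfrsf11a, the receptor RANK, 0.85. Acp5, Mmp9, Dcstamp, Ocstamp, Atp6v0d2 and Tnfrsf11a were named after their values were seen. The lower member was Itgb3, the integrin beta 3 chain, at 17.7 and 22.6 CPM against 35.5 and 37.9 CPM. Tnfsf11, which encodes the RANK ligand and is a known target of progesterone in the mammary gland, had 2.51 and 3.14 CPM in the progesterone and 0.63 and 0.421 CPM in the transgenic libraries, with 0.858 and 1.96 CPM in the vehicle libraries. Its log2 fold change was 2.41 ± 0.63 (SE), at levels that rest on few reads.

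**Figure D2:**
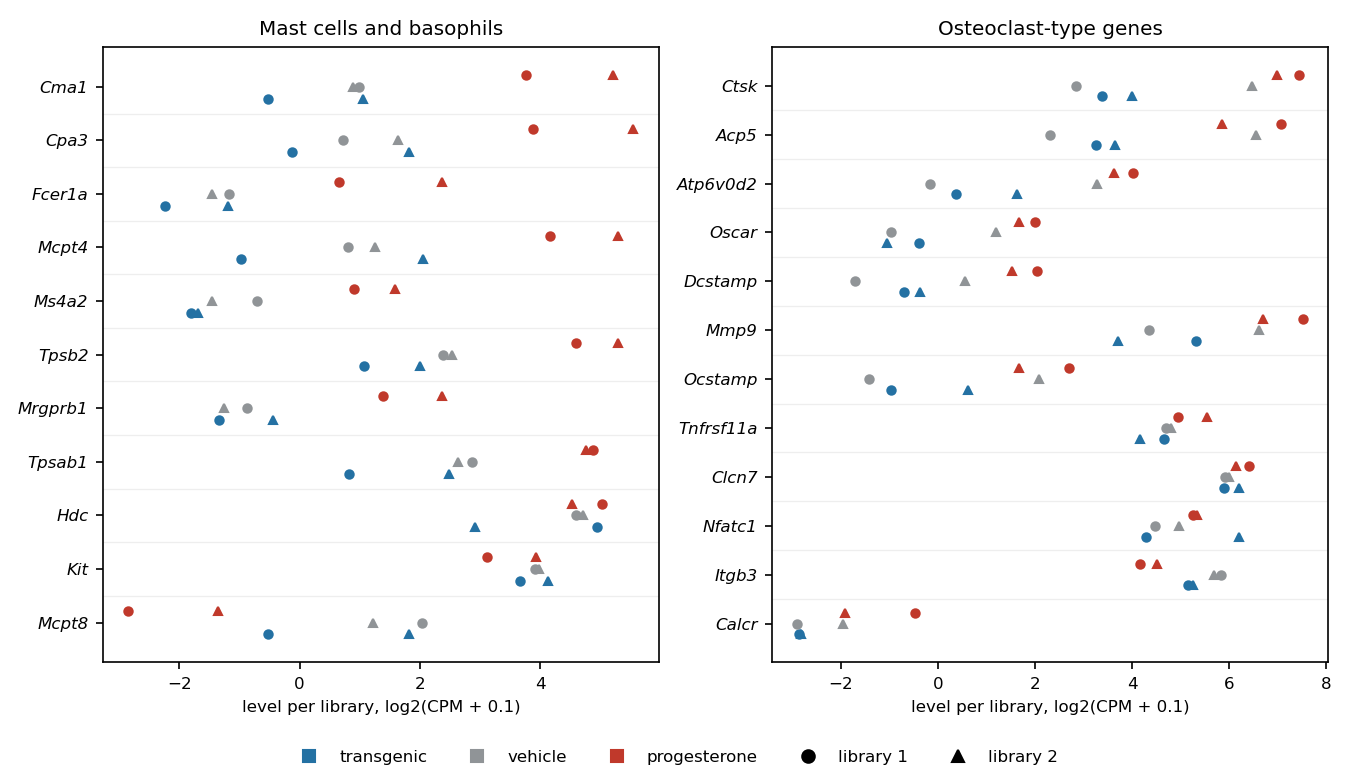
Level of each mast cell and basophil gene (left) and each osteoclast-type gene (right) in every library, as log2(CPM + 0.1) on the horizontal axis. Circles are library 1 and triangles library 2 of a group. Progesterone libraries (red) lie to the right of transgenic libraries (blue) for 8 genes in each panel that pass the filter, and vehicle library 2 (grey triangle) lies near the red points for Ctsk and Acp5.

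Iron and haem genes supplied 3 leading higher genes. Scara5, a scavenger receptor that takes up ferritin (ENSMUSG00000022032, chromosome 14 from 65666403 to 65764826, forward strand), had 12 and 15.1 CPM in the progesterone and 1.44 and 0.421 CPM in the transgenic libraries. All 4 libraries of ovariectomized hosts were high for it, the vehicle libraries at 16.2 and 17.4 CPM. The log2 fold change was 3.84 ± 0.55 (SE) with a confidence interval from 2.54 to 5.14, and it ran from 3.23 (without transgenic replicate 2) to 4.99 (without transgenic replicate 1). Haem oxygenase 1 (Hmox1, ENSMUSG00000005413, chromosome 8 from 75093621 to 75100589, forward strand), which breaks down haem and releases its iron, had 373 and 406 CPM in the progesterone and 202 and 162 CPM in the transgenic libraries. The vehicle libraries, at 180.1 and 188 CPM, lay with the transgenic ones, and both progesterone libraries were above all 4 others. The difference was 1.1 ± 0.17 (SE) in log2, a 2.14-fold difference, with an interval from 0.69 to 1.51. Steap3, the endosomal reductase of iron uptake, had 61 and 54.5 CPM against 30.1 and 28.4 CPM (0.98 ± 0.21 (SE)), with 57 and 40.9 CPM in the vehicle libraries. Of 19 tested iron and haem genes 7 (36.8%) were higher without overlap and 1 (5.26%) lower, against 14.5% of all genes each way. The median was 0.30. The iron exporter ferroportin (Slc40a1) had 15.3 and 14.9 CPM against 3.82 and 2.91 CPM and the ferritin light chain (Ftl1) 1377 and 1189 CPM against 1068 and 941 CPM. The lower member was the transferrin receptor (Tfrc), at 116 and 104 CPM against 129.5 and 191 CPM. Slc40a1, Ftl1 and Tfrc were named after their values were seen. Red blood cell transcripts were not high in the progesterone libraries. Their summed level was 86.2 and 167 CPM there and 2828 and 65.5 CPM in the transgenic libraries, which lay on both sides of the progesterone values, and their median of -3.52 was 1.01 without transgenic library 1.

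The other leading higher genes belonged to several functions. Draxin, a secreted guidance and Wnt-inhibiting protein, had 9.5 and 5.83 CPM in the progesterone and 1.0 and 1.1 CPM in the transgenic libraries (2.87 ± 0.55 (SE)), with 0.72 and 1.59 CPM in the vehicle libraries. Itgb4, the integrin beta 4 chain of hemidesmosomes, had 15.4 and 14 CPM against 5.7 and 4.0 CPM (1.6 ± 0.31 (SE)). Like Scara5, Itgb4 was as high in the vehicle libraries, at 17.3 and 13.6 CPM. Plet1, a surface protein of epithelial progenitors, shared that order, with 14 and 7.74 CPM against 3.37 and 2.74 CPM and 11.5 and 10.2 CPM in the vehicle libraries. By contrast, both vehicle libraries lay below both progesterone libraries for Cd37, a tetraspanin of leukocytes, and Serpinb1a, an inhibitor of neutrophil proteases. Cd37 had 20.6 and 19.7 CPM against 6.22 and 8.98 CPM (1.41 ± 0.29 (SE)), and Serpinb1a 4.91 and 13 CPM against 0.778 and 1.52 CPM (2.96 ± 0.62 (SE)). Ercc5, an endonuclease of nucleotide excision repair, had 65.3 and 54.1 CPM against 34.6 and 27.6 CPM, and Nceh1, a cholesterol ester hydrolase, 124 and 106 CPM against 73.8 and 65.1 CPM. These 2 were the smaller differences of the leading higher genes, at 0.94 ± 0.20 (SE) and 0.73 ± 0.16 (SE).

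Txnip, the thioredoxin-interacting protein that restrains glucose uptake (ENSMUSG00000038393, chromosome 3 from 96557957 to 96561883, forward strand), had 237 and 201 CPM in the progesterone and 114 and 95 CPM in the transgenic libraries. With 121 and 171 CPM the vehicle libraries lay between the groups, and the log2 fold change was 1.07 ± 0.21 (SE) with an interval from 0.56 to 1.57. Its promoter is printed because it was the 1 of 9 leading higher genes with a promoter entry to hold the receptor core ACANNNTGT, which 5.8% of all promoters hold. The 250 bases before its start (chr3:96557707-96557956, GRCm38.p6, forward strand, RefSeq) run 5′ to 3′. Capitals mark that core, 2 copies of the CCAAT box (1 on the opposite strand, as ATTGG) and 2 copies of CACGAG, a piece of the element through which glucose acts on this gene.
Txnip: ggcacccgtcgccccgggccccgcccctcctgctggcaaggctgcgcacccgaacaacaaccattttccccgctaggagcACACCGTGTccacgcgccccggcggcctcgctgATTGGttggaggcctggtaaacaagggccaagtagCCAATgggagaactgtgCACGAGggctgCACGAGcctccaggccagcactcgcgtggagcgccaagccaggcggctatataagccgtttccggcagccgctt
The CCAAT box stood in 33.8% and CACGAG in 5.4% of all promoters, and both motifs were chosen after the sequence was seen. A match of letters is no evidence of binding.

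**Figure D3:**
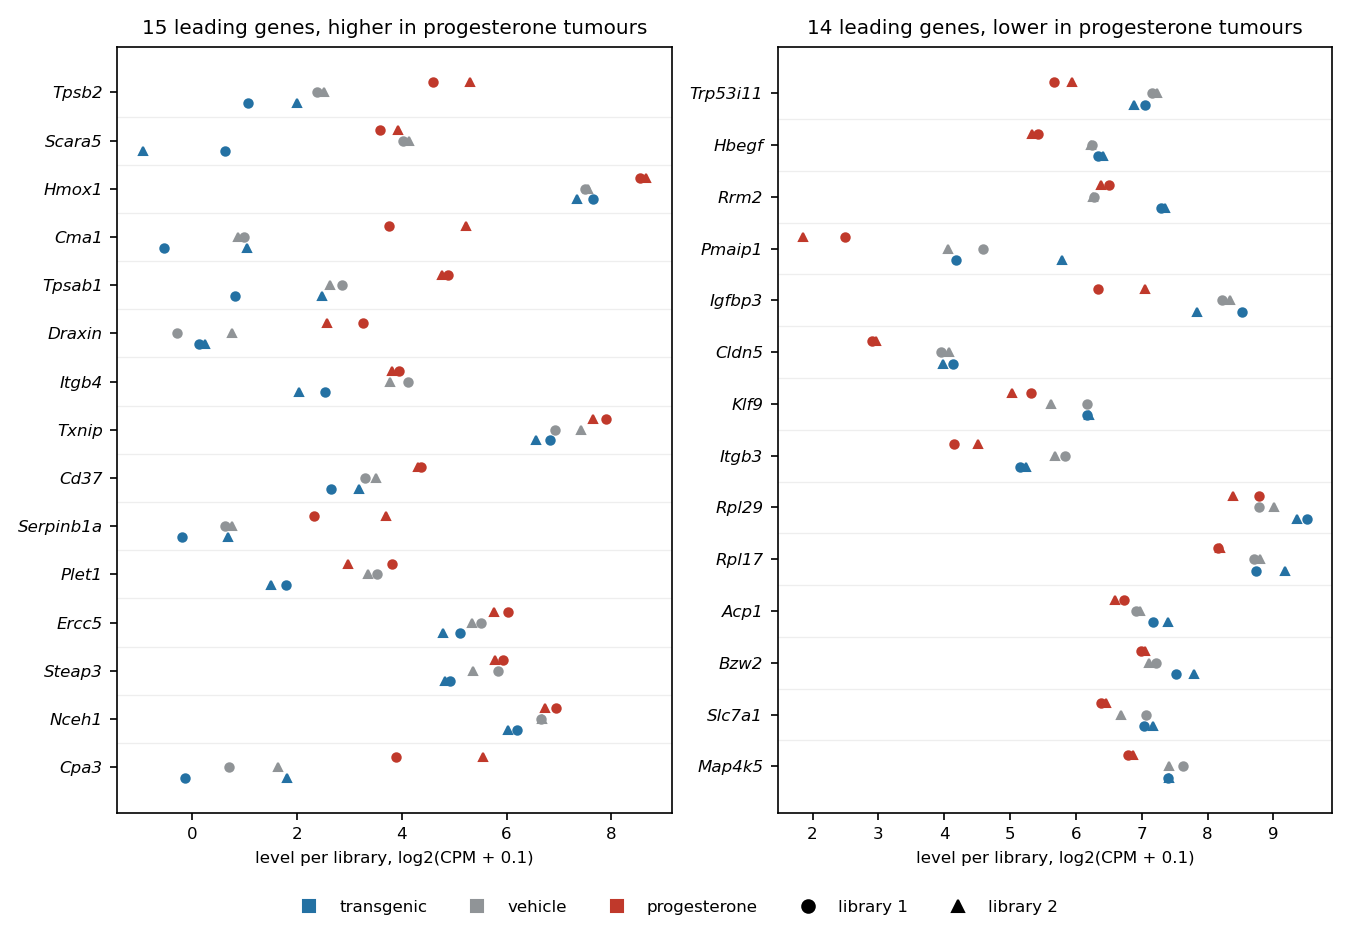
Level of the 15 leading higher (left) and 14 leading lower genes (right) in every library, as log2(CPM + 0.1) on the horizontal axis. Circles are library 1 and triangles library 2. Red progesterone and blue transgenic points do not overlap, because the genes were chosen so. Grey vehicle points lie with the red for Scara5 and Itgb4, and beyond the red, away from the blue, for Rrm2.

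Among the 15 leading lower genes, Trp53i11, a gene first described as induced by p53 (ENSMUSG00000068735, chromosome 2 from 93187548 to 93201759, forward strand), had 50.7 and 61.3 CPM in the progesterone and 132 and 118 CPM in the transgenic libraries, with 142 and 151 CPM in the vehicle libraries. Both progesterone libraries lay below all 4 others, and the log2 fold change was -1.16 ± 0.16 (SE). The heparin-binding ligand of the EGF receptor (Hbegf) had 42.8 and 40.3 CPM against 80.8 and 84.8 CPM and 76.1 and 75.2 CPM in the vehicle libraries. Its interval ran from -1.34 to -0.65 around -0.99, one of the narrowest among the leading genes. Pmaip1, which encodes the death-promoting protein Noxa, had 5.52 and 3.52 CPM against 18.1 and 55 CPM, a log2 fold change of -3.01 ± 0.56 (SE) that was -2.0 without transgenic library 2. Igfbp3, a binding protein of insulin-like growth factors, had 80.2 and 133 CPM against 367 and 230.1 CPM (-1.49 ± 0.31 (SE)), and 298 and 324 CPM in the vehicle libraries. The tight-junction gene of endothelium Cldn5 had 7.34 and 7.74 CPM against 17.5 and 15.8 CPM (-1.14 ± 0.25 (SE)). Klf9, a transcription factor that glucocorticoids induce and that partners the progesterone receptor in the uterus, had 39.9 and 32.6 CPM against 71.5 and 73.2 CPM (-1.0 ± 0.22 (SE)), with 72 and 49.1 CPM in the vehicle libraries. Smaller differences, between -0.85 and -0.58, were those of the ribosomal protein genes Rpl29 and Rpl17, the phosphatase gene Acp1, Bzw2, the cationic amino acid transporter Slc7a1 and the kinase Map4k5. Rpl29 and Rpl17 have many pseudogenes that can take or give reads.

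Rrm2, the small subunit of ribonucleotide reductase, which makes the building blocks of DNA (ENSMUSG00000020649, chromosome 12 from 24708241 to 24714146, forward strand), had 90.6 and 83.3 CPM in the progesterone and 157 and 163 CPM in the transgenic libraries. The vehicle libraries were lower still, at 77.7 and 76.5 CPM. The log2 fold change was -0.88 ± 0.14 (SE), with an interval from -1.21 to -0.55. Its promoter is printed as that of the leading replication gene, with the single CCAAT box near the start in capitals (chr12:24708004-24708253, GRCm38.p6, forward strand, RefSeq, 5′ to 3′).
Rrm2: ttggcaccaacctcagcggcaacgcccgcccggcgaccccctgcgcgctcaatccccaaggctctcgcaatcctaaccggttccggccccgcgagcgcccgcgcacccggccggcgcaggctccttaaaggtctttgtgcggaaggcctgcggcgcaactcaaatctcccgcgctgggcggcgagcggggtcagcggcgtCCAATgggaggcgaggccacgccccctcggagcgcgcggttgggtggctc
Neither receptor core, ACANNNTGT nor TCANNNTGA of the oestrogen receptor, stood in these 250 bases. Over the 9 leading lower genes with a promoter entry, 0 held ACANNNTGT and 1 held TCANNNTGA, a motif in 6.1% of all promoters.

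Cell cycle genes were mostly below the transgenic level by small amounts. Of 32 replication genes, 30 had a negative log2 fold change, and 14 (43.8%) were lower without overlap, against 14.5% of all genes. The median was -0.20 and no member but Rrm2 was past -0.6. Mcm10, a factor of replication forks, had 32.4 and 32.9 CPM against 40.7 and 56.3 CPM, and the primase subunit Prim1 35.9 and 45.5 CPM against 58 and 53.3 CPM. The replication median ran from -0.36 (without transgenic replicate 1) to -0.10 (without transgenic replicate 2). Of 28 mitosis genes 26 had negative values, with a median of -0.32. Without overlap 7 (25%) were lower and 1 (3.57%) higher. Cyclin B2 (Ccnb2) had 56.2 and 68.9 CPM against 77.9 and 108 CPM and Aurora kinase B (Aurkb) 65.6 and 60.0 CPM against 73.2 and 96.2 CPM. Gtse1, a mitotic regulator of p53, stood apart with 58.5 and 58.5 CPM in the progesterone and 43.5 and 37.2 CPM in the transgenic libraries. Transgenic library 2 held the highest level of Ccnb2, Aurkb and Mcm10, and without it the mitosis median was 0.05. Vehicle tumours set against the same transgenic libraries had medians of -0.65 for replication and -0.83 for mitosis genes.

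Targets of p53, the damage-responsive transcription factor, leaned higher with exceptions. Of 16 members 14 had positive values. Without overlap 6 (37.5%) were higher and 1 (6.25%) lower, against 14.5% of all genes each way. The median of 0.45 was 0.07 without progesterone library 1. Trp53inp1, a stress-induced partner of p53, had 58.5 and 35 CPM in the progesterone and 19.4 and 12.9 CPM in the transgenic libraries (1.53 ± 0.40 (SE)). Cyclin G1 (Ccng1) had 229 and 182 CPM against 158 and 83.3 CPM. The member lower without overlap was Pmaip1, and Trp53i11, outside the list, was also lower. Cdkn1a, the cell cycle inhibitor p21 and chosen here as the defining target, overlapped between the groups at 467 and 234 CPM and 308 and 173 CPM.

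The receptor through which progesterone acts was close to absent. The progesterone receptor gene (Pgr) had 0 counts in both progesterone libraries, which allows up to 0.116 and 0.124 CPM by the limit of 3 counts. In the transgenic libraries it had 3 and 0 counts and in the vehicle libraries 2 and 0. The luteinizing hormone receptor (Lhcgr) had 0 and 1 counts in the progesterone and 0 in both transgenic libraries. Both genes were below the filter and were not tested. Of 18 hormone receptor genes 11 were tested, and for none did the groups separate. The glucocorticoid receptor (Nr3c1), which progesterone can also bind, had 119 and 139.7 CPM in the progesterone, 128 and 157 CPM in the transgenic and 169.7 and 146 CPM in the vehicle libraries, a log2 fold change of -0.14 with an interval from -0.56 to 0.28. The membrane-associated progesterone binding proteins Pgrmc1 and Pgrmc2 had 68 and 82.1 CPM against 103 and 70.9 CPM and 88.2 and 87.4 CPM against 105 and 88.1 CPM. The membrane progestin receptors Paqr7 and Paqr8 had log2 fold changes of 0.07 and 0.11.

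Receptors of other steroids varied within groups. Oestrogen receptor alpha (Esr1) had 6.61 and 13.4 CPM against 18.7 and 3.16 CPM, so that its order depended on which libraries were paired. Esr2, Nr3c2, Vdr and Gper1, the receptors oestrogen receptor beta, mineralocorticoid receptor, vitamin D receptor and membrane oestrogen receptor, had 0.08, 0.06, -0.18 and -0.80. The sign of the fold change turned without 1 library for each tested receptor named here except Pgrmc2.

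Known targets of the progesterone and glucocorticoid receptors separated at a share below that of all genes in both directions. Of 24 tested, 3 (12.5%) were higher and 2 (8.33%) lower without overlap, against 14.5% of all genes each way, and the median was 0.16, which was -0.17 without progesterone library 1 and 0.61 without transgenic library 1. Beside Tnfsf11 and Klf9, the repressor gene Bcl6 had 34.9 and 37.7 CPM against 25.8 and 26.8 CPM (0.46 ± 0.18 (SE)). Vehicle libraries had the same Bcl6 level as the progesterone libraries, at 36.7 and 36.6 CPM. Oestrogen receptor targets had a median of 0.03 over 11 members, and the 1 member apart was lactoferrin (Ltf), at 0.0386 and 0.0827 CPM against 0.963 and 0.126 CPM. Of 12 enzymes of steroid synthesis and conversion, 4 (33.3%) were higher and 1 (8.33%) lower without overlap. Cyp11a1, the side-chain cleavage enzyme that starts steroid synthesis, had 0.695 and 1.57 CPM in the progesterone and 0 and 0.337 CPM in the transgenic libraries. Hsd17b1 had 0.85 and 0.621 CPM against 0.519 and 0.169 CPM, both near the limit of detection, and Hsd17b12, an enzyme that also serves fatty acid elongation, 110.2 and 101 CPM against 114 and 151 CPM. Of the proliferins, placental hormones of the prolactin family, 3 were tested, and their median of -2.4 was 1.55 without transgenic library 1. The copies Prl2c2, Prl2c3 and Prl2c5 can share reads.

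Metabolic gene groups had small median differences, although in some of them the groups separated for more members than the 14.5% of all genes each way. Of 30 hypoxia and glycolysis genes 0 were higher and 2 lower without overlap, with a median of -0.02, where the vehicle tumours had 0.58 against the same transgenic libraries. The 2 were oxygen-sensing prolyl hydroxylases, Egln3 at 204 and 244 CPM against 348 and 328 CPM and Egln1 at 99.7 and 105 CPM against 137 and 125 CPM. Of 22 cholesterol synthesis genes 18 had negative values and 8 (36.4%) were lower without overlap, with a median of -0.21 that ran from -0.43 (without progesterone replicate 1) to -0.05 (without progesterone replicate 2). Cyp51, lanosterol demethylase, had 50.9 and 48.7 CPM against 65.5 and 71.1 CPM, and Msmo1 and Sc5d, later enzymes of the pathway, had -0.61 and -0.35. Of 13 fatty acid genes 4 (30.8%) were lower and 1 higher without overlap (median -0.31). The stearoyl-CoA desaturases split, with Scd1 at 98 and 98.3 CPM against 119.8 and 145 CPM and Scd2 at 482 and 509.8 CPM against 438 and 397 CPM, and the desaturase Fads2 had 34.8 and 25.9 CPM against 44.1 and 67.9 CPM.

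Respiratory chain genes encoded in the nucleus had a median of 0.05 over 33 members, with 10 (30.3%) higher and 4 (12.1%) lower without overlap, and the median changed sign without progesterone library 1. Ndufs1 and Ndufb3, subunits of complex I, had 0.30 and 0.25, and Uqcrc1, of complex III, 4.21 and 4.96 CPM against 17.1 and 10.8 CPM. Mitochondrially encoded genes had a median of -0.01, with mt-Nd1 at 1406 and 1788 CPM against 1916 and 1924 CPM and mt-Co1 at 6824 and 7246 CPM against 6306 and 6664 CPM. Of 40 listed ribosomal protein genes 0 were higher and 3 lower without overlap, namely Rps7 (-0.38), Rps14 (-0.45) and Rpl4 (-0.18), with a median of 0.02. The leading lower genes Rpl29 (-0.85) and Rpl17 (-0.80) are ribosomal protein genes outside that list.

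Immediate early genes, which cells switch on within minutes of a stimulus, were mostly lower. Of 18, 8 (44.4%) were lower and 0 higher without overlap, against 14.5% of all genes each way. The median was -0.36 and ranged from -0.35 to -0.20 without each of the 4 libraries. Egr1, a zinc finger factor, had 18 and 18 CPM in the progesterone, 42.2 and 25.5 CPM in the transgenic and 53.9 and 55.1 CPM in the vehicle libraries. Ier2 had 45.4 and 32.4 CPM against 62 and 65.7 CPM and the stress factor Atf3 15.7 and 14.8 CPM against 20.2 and 28.1 CPM. Fos, named here as the defining member, overlapped at 18.5 and 20.7 CPM and 23.2 and 11.4 CPM.

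The other stress lists had shares of separated genes on both sides of the 14.5% of all genes each way. Of 17 cytosolic chaperones 2 were lower, Hsp90aa1 at 878 and 875 CPM against 1092 and 1345 CPM and Hspa8 (-0.29). In the unfolded protein and integrated stress list 2 of 23 (8.7%) were higher and 4 (17.4%) lower, with asparagine synthetase (Asns) at -0.44, the serine synthesis enzyme Phgdh at -0.27 and the disulfide isomerase Pdia4 at 0.33. The list of NRF2 antioxidant genes also held Txnip, which is not an antioxidant target of NRF2. Of its 15 members, 2 (13.3%) were higher, Hmox1 and Txnip, and 3 (20%) lower. Among the lower ones Gclm, a subunit of the glutathione-making ligase, had 62 and 55.3 CPM against 86.4 and 68.8 CPM. The median of that list was 0.12. Of 14 clock genes only Dbp was apart, at 8.46 and 12.5 CPM against 8.08 and 5.65 CPM.

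Macrophage markers leaned higher, in a way that depended on the transgenic libraries. Of 15, 14 had positive values and 5 (33.3%) were higher without overlap, against 14.5% of all genes. The median of 0.61 was -0.04 without transgenic library 1. The receptor for macrophage colony-stimulating factor (Csf1r) had 135 and 139.8 CPM in the progesterone, 59.5 and 103 CPM in the transgenic and 81.2 and 89.5 CPM in the vehicle libraries. Cd68, a lysosomal protein of macrophages, had 119 and 96.2 CPM against 38.2 and 78.1 CPM. Summed over the list, progesterone libraries had 2668 and 2476 CPM and transgenic libraries 1113 and 2441 CPM, so that transgenic library 2 was close to the progesterone level. Complement genes behaved alike in sign, with positive values in all 15, of which 4 (26.7%) were higher without overlap (median 0.50). Their summed level was 840 and 1119 CPM in the progesterone and 409 and 841 CPM in the transgenic libraries. Transgenic library 2 was thus level with progesterone library 1. Properdin (Cfp) had 95.5 and 87.6 CPM against 34.3 and 56.8 CPM (1.01 ± 0.26 (SE)) and the C5a receptor (C5ar1) 47.4 and 47.7 CPM against 27.6 and 39.7 CPM. The complement-shielding protein gene Cd55 had 1.27 and 21.5 CPM against 0.63 and 0.464 CPM, a difference carried by progesterone library 2.

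Innate sensing and chemokine genes gave mixed values. Of 20 Toll-like receptor pathway genes 6 (30%) were higher and 2 (10%) lower without overlap (median 0.29), against 14.5% of all genes each way. Tlr5, the flagellin sensor, had 2.28 and 3.39 CPM against 0.593 and 1.26 CPM. Tlr6 had 6.07 and 6.58 CPM against 3.04 and 3.84 CPM and the adaptor Tirap 38.8 and 39.4 CPM against 58 and 44.7 CPM. Of 32 chemokine and receptor genes 6 (18.75%) were higher and 1 (3.1%) lower without overlap. Ccr3, the eotaxin receptor of eosinophils, basophils and mast cells, had 0.811 and 1.2 CPM in the progesterone and 0.037 and 0.169 CPM in the transgenic libraries, and the macrophage chemokine Ccl9 107 and 132 CPM against 74.7 and 95.5 CPM. Cxcr3, a receptor of activated T cells, had 0.58 and 1.03 CPM against 0.148 and 0.169 CPM. Of 20 cytokines 17 had negative values, with a median of -0.28 that was 0.58 without transgenic library 1. Il1a had 0.541 and 0.455 CPM against 10.9 and 0.843 CPM, Tnf 1.82 and 1.41 CPM against 3.44 and 2.53 CPM and Il18 8.62 and 8.65 CPM against 6.59 and 4.64 CPM.

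Lymphocyte markers were near the limit of detection. The T cell receptor chain Cd3e had 0.232 and 0.455 CPM in the progesterone and 0.111 and 1.01 CPM in the transgenic libraries, and the T cell list had 7.38 and 6.25 CPM against 3.67 and 15.3 CPM in sum. Cd4 alone was higher without overlap, at 1.7 and 1.32 CPM against 0.37 and 0.969 CPM. Of 9 cytotoxic cell genes 1 (11.1%) was higher and 3 (33.3%) lower without overlap, against 14.5% of all genes each way. Granzyme B (Gzmb) had 1.7 and 1.24 CPM against 2.93 and 8.72 CPM and perforin (Prf1) 1.7 and 0.662 CPM against 2.67 and 8.34 CPM. The NK receptor Ncr1 had 0.85 and 0.538 CPM against 0.185 and 0.295 CPM. Transgenic library 2 had the highest Gzmb and Prf1 levels of the 4, and without it the list median of -0.86 was 0.11. B and plasma cell genes had a median of 0.65 over 6 members with 0 apart, which ran from 0.21 (without transgenic replicate 1) to 1.44 (without transgenic replicate 2). In the dendritic list the plasmacytoid marker Siglech had 1.43 and 1.65 CPM against 0.0741 and 0.59 CPM and 0 in both vehicle libraries, Cd209a 0.734 and 1.03 CPM against 0.185 and 0.253 CPM, and Batf3, a factor of conventional dendritic cells, 1.08 and 1.41 CPM against 2.37 and 2.49 CPM. Of 9 neutrophil genes 1 (11.1%) was higher without overlap, Mmp9, and 1 (11.1%) lower. The median of -0.11 ran from -0.69 (without transgenic replicate 2) to 1.44 (without transgenic replicate 1). The lower one, the granule protein gene Ngp, had 0.116 and 0.0827 CPM against 2.15 and 0.126 CPM, and its log2 fold change of -3.46 was -0.33 without transgenic library 1.

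Values of guanylate-binding GTPase and antigen presentation genes rested largely on transgenic library 2, while type I interferon genes varied in which library stood out. Of 30 type I interferon genes 6 (20%) were higher and 3 (10%) lower without overlap (median -0.01), against 14.5% of all genes each way. Ifi27l2a had 3.59 and 28.6 CPM against 2.19 and 3.08 CPM, a difference carried by progesterone library 2, the antiviral synthetase Oas2 5.6 and 8.4 CPM against 1.82 and 3.84 CPM and the exonuclease Isg20 8.5 and 8.77 CPM against 15.4 and 10.5 CPM. All 9 tested guanylate-binding and immunity-related GTPases had negative values, with 3 (33.3%) lower without overlap and a median of -1.07. Gbp8 had 2.78 and 2.57 CPM against 4.74 and 8.34 CPM, Gbp3 5.95 and 6.16 CPM against 7.15 and 18.3 CPM and Irgm1 6.3 and 5.46 CPM against 6.74 and 12.3 CPM, each highest in transgenic library 2, and without that library the median was -0.08. For neither MHC class did any gene separate the groups. The invariant chain Cd74, the defining class II gene, had 101 and 44.3 CPM in the progesterone and 30.6 and 206 CPM in the transgenic libraries, and the class II median of -0.53 was -1.35 without transgenic library 1 and 1.35 without transgenic library 2. Of 17 checkpoint and suppressive genes 1 (5.9%) was higher and 3 (17.6%) lower without overlap. Nt5e, the ectonucleotidase CD73, had 7.38 and 15.6 CPM against 20.9 and 21 CPM. Arginase 1 (Arg1) had 113 and 114 CPM against 121 and 172 CPM and Lag3 1.12 and 1.78 CPM against 2.15 and 1.85 CPM.

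Vessel genes were lower where they separated, apart from a few. Of 15 endothelial markers 13 had negative values. Without overlap 4 (26.7%) were lower and 0 higher, against 14.5% of all genes each way. The median of -0.49 was 0.04 without progesterone library 1. Beside Cldn5, von Willebrand factor (Vwf) had 12.9 and 19.5 CPM in the progesterone, 27.7 and 29.2 CPM in the transgenic and 51.5 and 56.7 CPM in the vehicle libraries, and endomucin (Emcn) 4.44 and 12.1 CPM against 14.5 and 14.7 CPM. The summed endothelial level was 286 and 488 CPM in the progesterone and 483 and 502 CPM in the transgenic libraries, so that progesterone library 2 was level with the transgenic tumours. Of 24 angiogenic ligands and receptors 8 (33.3%) were lower and 3 (12.5%) higher without overlap, against 14.5% of all genes each way. Angptl4, a secreted lipase inhibitor, had 23.7 and 35.1 CPM against 99.6 and 45.9 CPM, the Notch ligand Dll4 6.03 and 13 CPM against 20.5 and 21.3 CPM and placental growth factor (Pgf) 9.89 and 17.2 CPM against 38.7 and 20.7 CPM. The apelin receptor (Aplnr), named after its values were seen, had the largest positive value, at 3.28 and 16 CPM against 0.815 and 2.61 CPM. Among pericyte genes Cspg4, the NG2 proteoglycan, had 11.4 and 11.4 CPM against 4.37 and 3.62 CPM (1.51 ± 0.34 (SE)), with 6.14 and 8.59 CPM in the vehicle libraries, and the adhesion gene Mcam 27.4 and 66.5 CPM against 74.3 and 114 CPM.

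Fibroblast and matrix genes depended on single libraries. Of 16 fibroblast markers 15 had positive values, and 3 (18.75%) were higher without overlap, against 14.5% of all genes. Their median of 1.07 ran from -0.15 (without progesterone replicate 2) to 2.16 (without transgenic replicate 1). Their summed level was 5891 and 12119 CPM in the progesterone, 8497 and 2412 CPM in the transgenic and 7732 and 13115 CPM in the vehicle libraries, lowest in transgenic library 2. The surface gene Cd34 had 182 and 120.2 CPM against 92.5 and 78 CPM (0.83 ± 0.22 (SE)), and fibulin 1 (Fbln1) 13.9 and 33.8 CPM against 6.85 and 5.27 CPM. Pi16, a marker of adventitial fibroblasts, had 3.44 and 94.2 CPM against 3.11 and 1.22 CPM, so that only progesterone library 2 stood out. Of 20 collagens 4 (20%) were higher and 2 (10%) lower without overlap, against 14.5% of all genes each way. Col23a1 had 10.3 and 8.32 CPM in the progesterone and 2.0 and 3.37 CPM in the transgenic libraries but 44.6 and 18.9 CPM in the vehicle libraries. Col18a1 had 994 and 904 CPM against 678 and 692 CPM and Col5a3 152 and 176 CPM against 222 and 252 CPM.

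Of 20 proteases that cut the matrix, 5 (25%) were higher and 3 (15%) lower without overlap, against 14.5% of all genes each way. Beside Ctsk, the membrane protease Adam8 had 309.7 and 221 CPM against 134 and 180.0 CPM (0.76 ± 0.23 (SE)), and the aggrecanase Adamts5 2.78 and 29.3 CPM against 2.37 and 1.64 CPM, the last carried by progesterone library 2. The macrophage elastase Mmp12, chosen after its values were seen, had 154 and 97.6 CPM in the progesterone and 144 and 99.7 CPM in the transgenic libraries, while the vehicle libraries had 568 and 458 CPM. The urokinase receptor (Plaur) had 113 and 85.1 CPM against 178 and 157 CPM (-0.76 ± 0.20 (SE)). Of 21 integrins and laminins 3 (14.3%) were higher and 6 (28.6%) lower without overlap. Itgb4 and Itgb3 had the smallest p among the members without overlap. Itgb3 was not the lowest by fold, as 1 other member was lower without overlap by at least 2-fold. Laminin beta 1 (Lamb1) had 839 and 869 CPM against 975 and 1422 CPM. Of 13 matricellular genes 2 (15.4%) were higher and 1 (7.69%) lower without overlap, and all 3 moved with single libraries. Ccn1 had 35.1 and 79.5 CPM against 129 and 85.1 CPM, and its log2 fold change of -0.90 ran from -1.61 (without progesterone replicate 2) to -0.42 (without progesterone replicate 1). Tenascin N (Tnn) had 4.13 and 5.38 CPM against 0.407 and 2.53 CPM, with 1.7 and a range from 0.91 (without transgenic replicate 1) to 3.53 (without transgenic replicate 2). Thrombospondin 2 (Thbs2) had 532 and 499 CPM against 482 and 281 CPM, with 0.44 and a range from 0.10 (without transgenic replicate 2) to 0.88 (without transgenic replicate 1).

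Transport, growth factor and lineage genes completed the lists. The cholesterol exporter Abca1 had 83.5 and 128 CPM against 46.2 and 70.3 CPM (0.86 ± 0.28 (SE)), Abcc5 84.9 and 83.9 CPM against 54 and 70.4 CPM and Abcc4 53.6 and 55.3 CPM against 66.3 and 92.2 CPM. Of 11 EGF family genes 3 (27.3%) were lower and 0 higher without overlap, against 14.5% of all genes each way. The 3 were Hbegf, betacellulin (Btc) at 2.24 and 4.96 CPM against 6.26 and 11.3 CPM and the receptor Erbb2 at 18.6 and 16.3 CPM against 19.7 and 26.5 CPM. In the IGF list, the clearing receptor Igf2r had 473 and 441 CPM against 350.4 and 254 CPM. Factors of epithelial and mesenchymal state had values on both sides of 0, with Twist1 at -0.33, Twist2 at 0.49 and E-cadherin (Cdh1) at 1.74 and 1.7 CPM against 3.44 and 2.44 CPM. The lung surfactant gene Sftpc, a defining marker of alveolar type II cells, had 0 counts in both progesterone libraries and 1 and 0 in the transgenic libraries, so the lung lineage named for these cells rested on Krt8, Krt18 and Ager. Skeletal muscle transcripts had negative values in all 6 tested genes, with Tnnt3 at 2.32 and 2.28 CPM against 2.78 and 10.6 CPM and Acta1 at 0.425 and 0.165 CPM against 1.63 and 0.674 CPM. The part of these other cell types in the differences above was not tested.

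**Figure D4:**
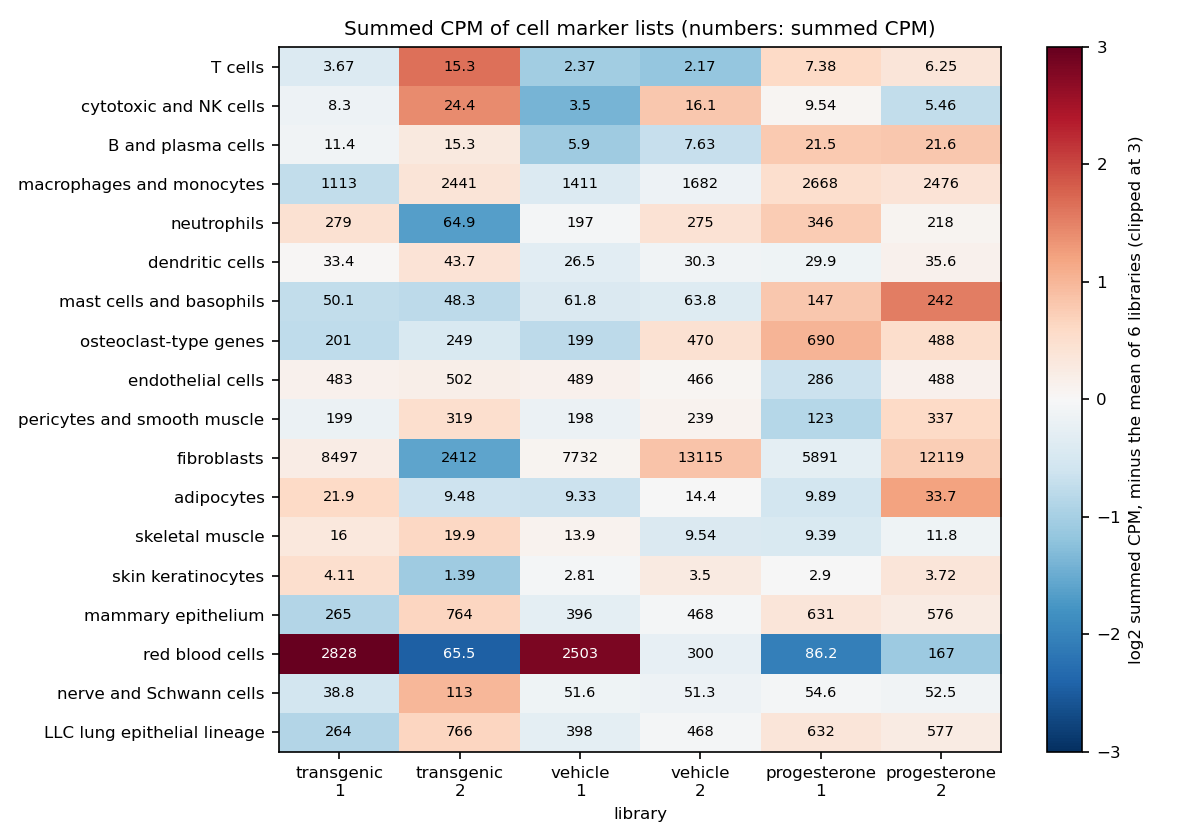
Summed CPM of each cell marker list (rows) in each library (columns). Numbers are summed CPM and colours show the log2 level minus the mean of the 6 libraries. Mast cell genes are highest in the 2 progesterone libraries, whereas red blood cell genes vary most between the libraries of 1 group.

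Set side by side, the mast cell and osteoclast-type lists had the highest medians among the 55 lists with at least 3 tested genes. For 19 of the 55 lists the median kept its sign without each of the 4 libraries, and for 36 it changed sign without at least 1. Those that kept it included the mast cell, osteoclast-type, iron, complement, p53 and Toll-like receptor lists on the higher side and the replication, cholesterol, fatty acid, immediate early and GTPase lists on the lower side. Fibroblast, macrophage, endothelial, MHC, interferon, hypoxia and mitosis lists were among those that changed. All medians stand beside 0.01 for all genes.

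**Figure D5:**
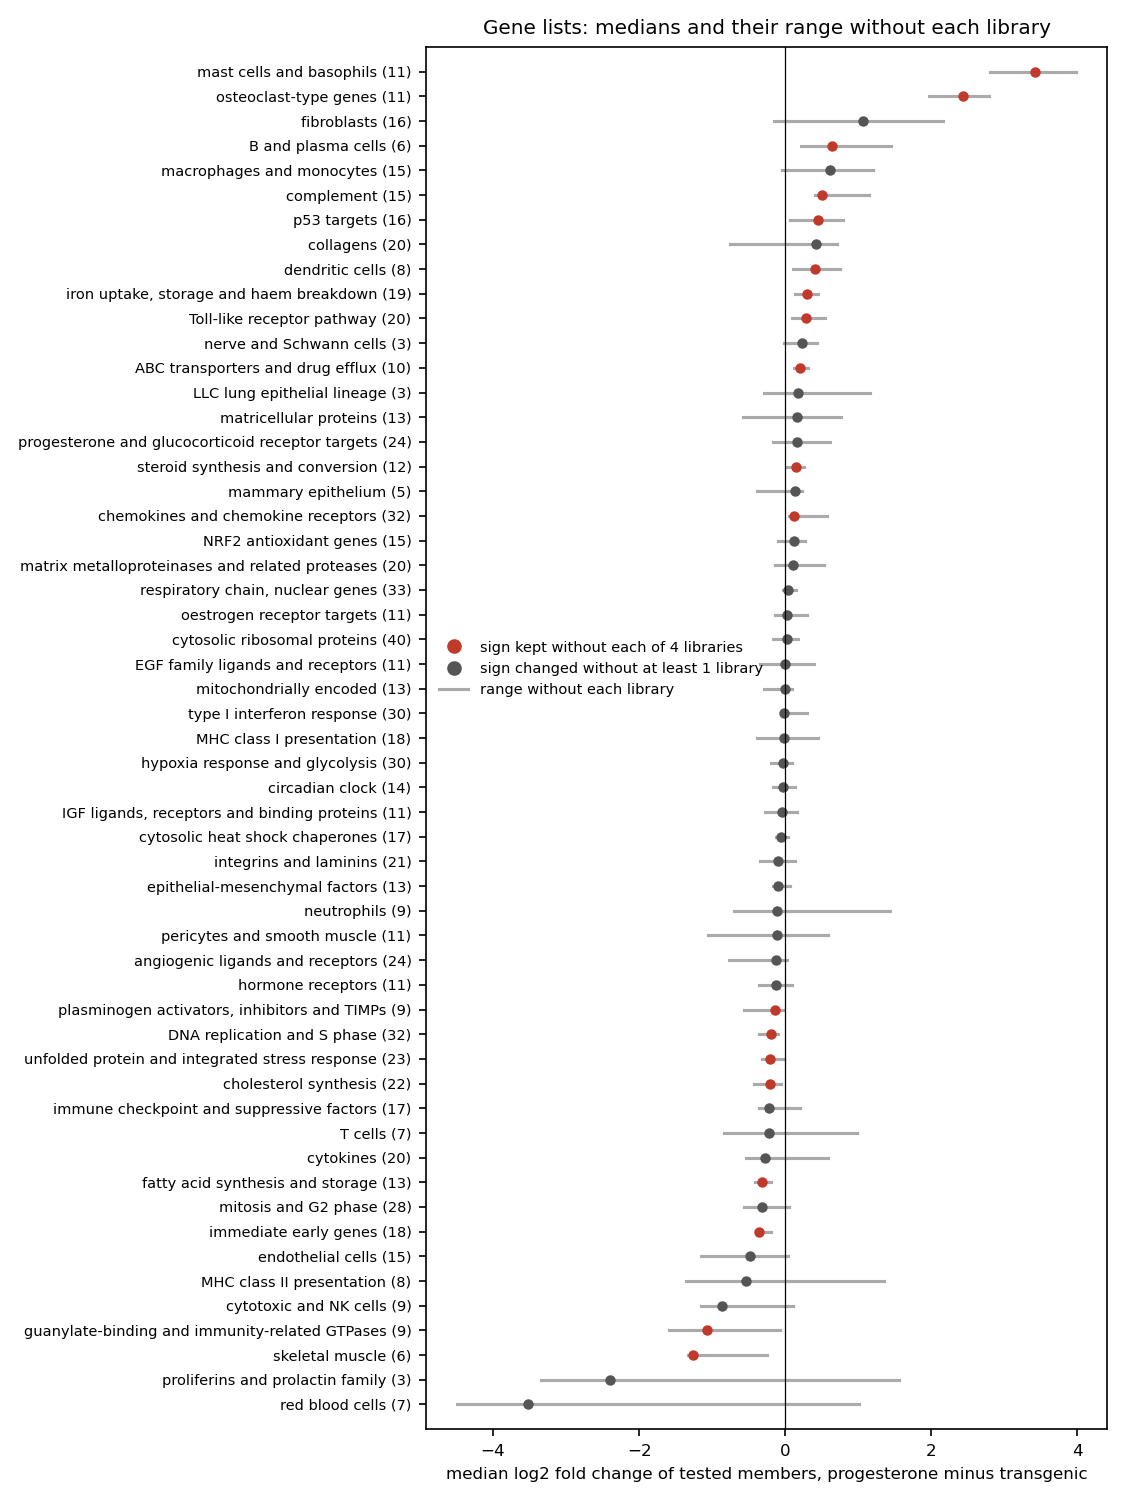
Median log2 fold change of progesterone over transgenic tumours for the tested genes of each list, whose number stands in brackets. Grey lines span the medians without each of the 4 libraries. Red points are the 19 lists whose median kept its sign and dark points the 36 whose median did not, and the mast cell list lies highest at 3.42.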

How the data were processed

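RNA of 6 LLC1 tumours was extracted with TRIzol and DNase, and 500 ng entered a directional mRNA library with 11 PCR cycles, per the labels' protocols. The authors deposited raw read counts per gene. HISAT2, HTSeq, DESeq and build GRCm38.p6 are named per the submitters' processing notes, whereas versions, settings and the strand option of counting are named in no source used here. Reads of overlapping or antisense genes and of close copies therefore cannot be told apart with certainty.

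Of 19288 gene IDs, 19284 were found in GENCODE M21 (GRCm38), the source of all gene coordinates (1-based). Counts were analysed in R 4.3.3 with edgeR 4.0.16: filterByExpr kept 13632 genes, library sizes were TMM-scaled, and 1 quasi-likelihood model with 1 mean per group was fitted to all 6 libraries with 3 residual degrees of freedom (common biological coefficient of variation 0.295). The contrast was progesterone minus transgenic, with Benjamini-Hochberg adjustment over all tested genes and a threshold of 0.05. Standard errors and 95% intervals derive from the F statistic. A count of 0 was taken to allow 3 counts, for counting error only, as no molecular identifiers were used. DESeq2 1.42.0 and limma 3.58.1 (voom), another scaling, 2 other filters, the 4 libraries alone, replicate blocks and leaving out each library were alternatives.

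The comparison, the 57 gene lists and the rules were chosen with earlier results of these data known. Named genes were, per direction, the 15 with the smallest p among genes whose groups did not overlap, whose higher mean reached 5 CPM and whose symbol was informative. For each list up to 3 members with the smallest p among those without overlap were named, and all tested hormone receptors, with exceptions named as such in the text. A few genes that this rule names are not reported here. Lists were described by counts and medians and not tested. Promoters came from RefSeq (GRCm38.p6), where 18 of the 30 leading genes had an entry. Of 924 listed genes, 28 had no row in the table and are not analysed here.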

Additional observations from a re-analysis of the deposited data

How the results depend on the processing

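The count of 0 called genes held under the other scaling, limma-voom, the stricter filter, the 4 libraries alone and without each library. DESeq2 called 32 higher and 14 lower genes, and edgeR with every gene of at least 1 count called 23 higher and 5 lower. With that filter the genes at least 2-fold apart without overlap numbered 718 higher and 569 lower, against 323 and 202. Without each library in turn they ranged from 323 to 941 higher and from 201 to 909 lower. The deviations of same-numbered progesterone and transgenic libraries correlated at -0.174. With 2 libraries a group, this value cannot decide whether replicate numbers pair the samples. With the replicate block 0 genes were called (smallest adjusted p 0.237 by edgeR), 625 had an unadjusted p under 0.05, and 336 higher and 198 lower were at least 2-fold apart. With the pairing crossed, an alternative added after the data were seen, 0 were called and 739 had an unadjusted p under 0.05.

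Among genes named by the rule the sign of the log2 fold change turned only for hormone receptors, none of them called. The others were chosen because their groups did not overlap, so their sign was largely fixed by that choice. Genes named outside the rule, among them Cd74 and Cdkn1a, were not covered. Over the fits that left out 1 library, named in brackets, the value ran for Pgrmc1 from -0.46 (transgenic library 2) to 0.083 (transgenic library 1), for Gper1 from -1.95 (progesterone library 2) to 0.056 (transgenic library 1), for Nr3c1 from -0.28 (transgenic library 1) to 0.014 (transgenic library 2), for Vdr from -0.51 (progesterone library 2) to 0.089 (progesterone library 1), for Paqr8 from -0.084 (transgenic library 2) to 0.35 (transgenic library 1). It ran for Paqr7 from -0.37 (progesterone library 1) to 0.40 (progesterone library 2), for Esr2 from -0.13 (transgenic library 1) to 0.32 (transgenic library 2), for Esr1 from -0.90 (transgenic library 2) to 1.66 (transgenic library 1), for Nr3c2 from -1.26 (progesterone library 2) to 0.74 (progesterone library 1). Further turns within these ranges were Vdr at 0.02 without transgenic library 2, Esr2 at -0.09 without progesterone library 2, Esr1 at 0.29 without progesterone library 1 and Nr3c2 at -0.19 without transgenic library 2. With limma-voom Esr1 had 0.22 and Nr3c2 -0.24, and with the crossed pairing Nr3c2 had -0.15. The causes were not tested. With 2 libraries a side and 3 residual degrees of freedom, differences of the size seen between libraries of 1 group were not detectable.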

Other observations

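DESeq2 called 46 genes between progesterone and transgenic tumours that edgeR did not, and all 46 had no overlap of the groups. Of these 25 were among the 30 leading genes. The genes below are among those it called outside the leading genes and gene lists, chosen after their values were seen. Neuronal pentraxin 1 (Nptx1), a secreted synaptic protein, had 871 and 456 CPM in the progesterone and 238 and 309.5 CPM in the transgenic libraries, with 543 and 565 CPM in the vehicle libraries. The guidance gene netrin 1 (Ntn1) had 824 and 569.8 CPM against 379.6 and 405 CPM, and the semaphorin Sema4c 182 and 167 CPM against 109.5 and 77.5 CPM. Elastin (Eln) had 5.87 and 17 CPM against 1.44 and 0.927 CPM, with 3.05 and 11.7 CPM in the vehicle libraries. The leukocyte gene Arhgap45 had 149.8 and 138 CPM against 77.5 and 88.3 CPM. On the lower side, the translation initiation factor gene Eif2s1 had 203 and 205 CPM against 287 and 346 CPM.

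The granzyme genes Gzmf, Gzmg and Gzmd, which encode serine proteases of cytotoxic cells, were also chosen after their values were seen, and of these only Gzmf was called by DESeq2. As close copies they can share reads. Gzmf had 1.12 and 0.538 CPM in the progesterone and 11.1 and 7.97 CPM in the transgenic libraries, Gzmg 0.811 and 0.248 CPM against 9.96 and 3.25 CPM and Gzmd 1.51 and 0.662 CPM against 8.45 and 4.09 CPM. Vehicle library 2 was the highest of all for these 3, at 20.9, 28.2 and 21.5 CPM.

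Several of the largest fold differences came from 1 library. In progesterone library 2 alone, Adamts15 had 30.6 CPM, the Wnt modulator Sfrp2 38.6 CPM and the lipopolysaccharide-binding protein Lbp 46.7 CPM, where progesterone library 1 had 0.502, 0.657 and 0.695 CPM and no vehicle or transgenic library was above 0.583 CPM. The scavenger receptor Cd163 had 4.29 and 126 CPM in the progesterone libraries. In transgenic library 2 the endocytic receptor Lrp2 had 60.1 CPM, against 5.89 CPM in transgenic library 1 and 4.71 and 2.36 CPM in the progesterone libraries.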
